A study of Mus musculus with 17 samples.

Results

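The genes that copy DNA were followed across mouse liver progenitor cells, the cells made from them in culture, and mature liver cells. The set holds 36 genes known for DNA replication and for the S phase of the cell cycle, chosen by name. All 36 of 36 were found on the arrays, among 25975 genes tested of 31693 gene names, and they were carried by 42 probes: 30 genes had 1 probe and 6 had 2. Orc1 stood under its older name, Orc1l. A gene entered the tests if its probe was well above background on at least 2 of 17 arrays, and all 36 did.

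The 17 single-colour Agilent arrays fell into 5 groups: undifferentiated adult hepatic progenitor cells (n = 4), progenitors differentiated in culture towards hepatocytes (n = 4, here the hepatocyte condition) or towards cholangiocytes, the lining cells of the bile ducts (n = 3, called the cholangiocyte condition below), and as mature cells primary hepatocytes (n = 4) beside primary cholangiocytes (n = 2). All groups came from Foxl1-Cre; RosaYFP mice of 6 to 10 weeks, in which Cre recombinase is driven by Foxl1, a forkhead factor gene, and turns on a yellow fluorescent reporter. The primary cells therefore carry the same alleles. The labels do not say whether the arrays of a group are separate animals or cultures, or whether animals were pooled, so p-values measure the spread between these arrays, which may be technical. The study set the cells made in culture beside primary cells.

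DNA replication is prepared before S phase, when Orc1, Cdc6 and Cdt1 load the ring-shaped Mcm2 to Mcm7 helicase onto origins and geminin (Gmnn) later blocks reloading. Cdc45, the GINS complex and Mcm10 then switch the helicase on, polymerases copy the strands with the Pcna clamp and its Rfc loader, and ribonucleotide reductase supplies nucleotides. E2F factors turn many of these genes on together. Hepatocytes of the adult liver rest outside the cell cycle for most of the time and can re-enter it when liver tissue is lost.

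Because many of these genes share E2F control, their promoters were searched in the RefSeq promoter windows of build GRCm38.p6, each from 250 bases before to 50 bases after a start. Windows were at hand for 29 of the 36 genes (35 windows). An E2F-type motif (TTTCCCGC, TTTGGCGC, TTCCCGCC or TTGGCGCC, either strand, overlapping matches counted) stood in 15 of 35 windows (42.9%), against 3.8% of all 32851 windows. The motif CCAAT, bound by NF-Y, stood in 22 of 35 (62.9%), against 37.4% of all windows. The cell cycle homology motif (TTTGAA or TTCGAA), which marks many mitosis genes, stood in 6 of 35 (17.1%), against 19.2%. Shown are the 250 bases before the start for the 3 genes with the largest difference and the 3 with the smallest between the hepatocyte condition and undifferentiated cells, among those with a promoter entry. Capitals mark matches to the E2F-type forms listed above, and other forms of the motif were not searched. Only Mcm6 of these 6 holds any in this stretch, 2 of them, whose first bases lie 110 and 47 bases before the start.
Orc1 (chr4:108579204-108579453, plus strand): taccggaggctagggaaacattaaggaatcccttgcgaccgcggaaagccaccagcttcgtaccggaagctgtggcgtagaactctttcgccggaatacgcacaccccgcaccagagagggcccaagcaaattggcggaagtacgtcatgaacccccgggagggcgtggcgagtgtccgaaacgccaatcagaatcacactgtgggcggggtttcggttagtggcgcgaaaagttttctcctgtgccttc
Rrm2 (chr12:24708004-24708253, plus strand): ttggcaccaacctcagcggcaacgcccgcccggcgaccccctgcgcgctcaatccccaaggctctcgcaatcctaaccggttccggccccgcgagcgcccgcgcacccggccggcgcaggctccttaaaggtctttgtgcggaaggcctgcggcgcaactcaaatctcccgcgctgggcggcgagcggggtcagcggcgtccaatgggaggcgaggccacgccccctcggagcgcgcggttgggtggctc
Mcm10 (chr2:5012792-5013041, minus strand): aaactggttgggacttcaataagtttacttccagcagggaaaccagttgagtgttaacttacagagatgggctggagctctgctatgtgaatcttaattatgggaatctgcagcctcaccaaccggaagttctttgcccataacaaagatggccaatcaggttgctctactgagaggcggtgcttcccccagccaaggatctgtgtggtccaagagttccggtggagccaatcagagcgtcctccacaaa
Mcm6 (chr1:128359706-128359955, minus strand): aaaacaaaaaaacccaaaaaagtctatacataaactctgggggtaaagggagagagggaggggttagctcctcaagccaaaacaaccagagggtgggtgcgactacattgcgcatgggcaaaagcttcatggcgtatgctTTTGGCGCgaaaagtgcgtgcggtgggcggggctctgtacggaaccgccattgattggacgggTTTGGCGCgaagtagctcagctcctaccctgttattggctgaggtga
Fen1 (chr19:10204394-10204643, minus strand): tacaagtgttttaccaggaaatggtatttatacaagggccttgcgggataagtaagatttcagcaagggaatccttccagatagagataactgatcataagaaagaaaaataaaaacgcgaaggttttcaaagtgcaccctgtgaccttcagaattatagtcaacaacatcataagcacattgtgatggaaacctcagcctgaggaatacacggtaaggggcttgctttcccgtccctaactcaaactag
Tyms (chr5:30073626-30073875, minus strand): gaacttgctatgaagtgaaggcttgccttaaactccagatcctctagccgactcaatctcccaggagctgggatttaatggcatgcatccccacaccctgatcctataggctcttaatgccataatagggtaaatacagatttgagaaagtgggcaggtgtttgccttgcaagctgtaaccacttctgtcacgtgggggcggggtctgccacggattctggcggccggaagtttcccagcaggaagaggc

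A level is a log2 intensity minus the 75th percentile of its array, so a difference of 1 is 2-fold, and levels of different genes are not set against each other. That percentile was 547 to 986 intensity units on the primary hepatocyte arrays and 1747 to 2867 on the others. Between 32 and 33 of the 36 genes were well above background on each primary hepatocyte array, and 34 to 36 on every other array. Labelled cell types were checked against marker lists. The mean level of 10 hepatocyte markers was 7.04 to 7.45 on the primary hepatocyte arrays, -1.44 to 3.49 in the hepatocyte condition and -3.91 to 0.52 in undifferentiated cells. Albumin (Alb) was at 7.62, -4.76, 7.58 and -3.65 on hepatocyte condition arrays 1 to 4, and at 6.00 on undifferentiated array 1 against -8.74 to 1.26 on the other 3. None of the 10 hepatocyte markers passed between the hepatocyte condition and undifferentiated cells. Krt19, a bile duct keratin, was at 3.79 to 5.16 in the hepatocyte condition and at -8.52 to -5.84 in primary hepatocytes.

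Across the 36 genes, the cholangiocyte condition lay highest and primary hepatocytes lowest. The median gene of an array, relative to the mean of the undifferentiated arrays, was 0.77, 0.26 and 0.57 on the 3 cholangiocyte condition arrays. It was -0.44, -0.90, -0.83 and -1.13 on hepatocyte condition arrays 1 to 4, -0.42 and -0.56 on the 2 primary cholangiocyte arrays, and -1.62, -1.80, -1.59 and -1.42 on the primary hepatocyte arrays. The undifferentiated arrays lay at -0.05, -0.26, -0.16 and 0.48, with array 4 apart from the other 3. In bulk RNA, fewer cells in S phase and less of each transcript per cell cannot be told apart.

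**Figure D1:**
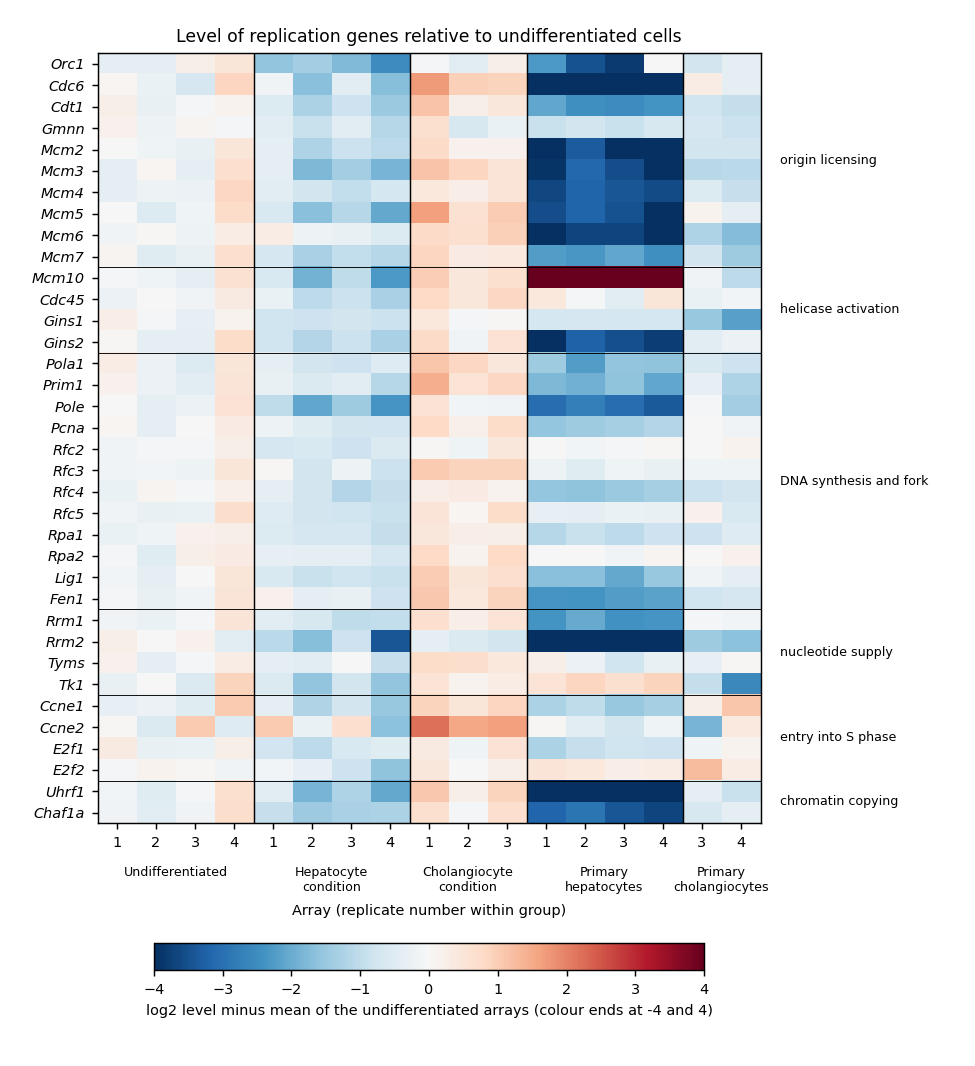
Rows are the 36 replication genes grouped by role, columns are the 17 arrays by group and replicate number, and colour is the log2 level minus the mean of the undifferentiated arrays. Colours are clipped at 4 either side of 0; most rows are below 0 on the primary hepatocyte arrays, and Mcm10, with levels of 4.76 to 5.54 there and 0.06 to 1.05 in undifferentiated cells, is above 0.

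The first comparison asks what becomes of the replication genes when progenitors are cultured towards hepatocytes. All 36 genes had a lower mean in the hepatocyte condition than in undifferentiated cells, 18 of them fell at an adjusted p under 0.05 (limma, Benjamini-Hochberg over all genes tested) and none rose. Among all genes tested 15.3% passed and 7.7% fell (1979 up and 2000 down; 1115 up and 2771 down when arrays were scaled to their median). The median difference was -0.80 for the 36 genes and 0.07 for all genes. The groups did not overlap for 21 of the 36, against 11.4% of all genes that lay lower without overlap.

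Among the licensing genes, 5 of 10 fell. Cdt1, which brings the Mcm ring to origins, was at 2.43, 1.91, 2.12 and 2.35 in undifferentiated cells and at 1.67, 0.93, 1.38 and 0.72 in the hepatocyte condition. Each array of the condition lay below every undifferentiated array, and the difference was -1.03 ± 0.24 (SE; adjusted p = 0.00966). Mcm3 fell by 1.35 (SE 0.33), although hepatocyte condition array 1, at 2.25, reached the undifferentiated range of 2.23 to 3.28. Mcm5 (-1.37 ± 0.36), Mcm7 (-1.02 ± 0.25) and Mcm2 (-0.86 ± 0.26) fell without overlap. Mcm6, of the same ring, had a difference of -0.19 ± 0.25 (adjusted p = 0.702): its levels were 4.68, 4.18, 4.07 and 3.84 in the condition and 4.23, 4.42, 4.18 and 4.67 in undifferentiated cells, which overlap. Orc1, the origin recognition subunit, had a lower mean by a larger step (-1.81 ± 0.63) that did not pass (adjusted p = 0.0685).

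All 4 genes of helicase activation fell. Mcm10, a helicase activator, went from 0.41, 0.28, 0.06 and 1.05 to -0.16, -1.43, -0.56 and -1.84 (-1.45 ± 0.36, adjusted p = 0.0137). The groups did not overlap. Gins1 (-0.81 ± 0.17), Gins2 (-1.03 ± 0.28) and Cdc45 (-0.87 ± 0.25), the partners of the moving helicase, fell too.

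Of the 12 genes of DNA synthesis and the fork, 5 fell. The largest difference was in Pole, the catalytic subunit of the leading strand polymerase: its levels were 1.38, 1.01, 1.13 and 1.94 in undifferentiated cells and 0.35, -0.72, -0.07 and -1.01 in the condition. That is a difference of -1.73 ± 0.35 (adjusted p = 0.00445), with no overlap, read from the brighter of 2 probes; with the mean of both probes it did not pass (adjusted p = 0.147), nor did Pole between the 2 culture conditions (0.154) or between the hepatocyte condition and primary hepatocytes (0.5). Rfc4 (-0.81 ± 0.17) and Rfc2 (-0.67 ± 0.15) of the clamp loader, the single-strand binding protein Rpa1 (-0.71 ± 0.16) and the ligase Lig1 (-0.80 ± 0.19) fell. Pcna, the clamp itself, had a difference of -0.55 ± 0.19 that did not pass (adjusted p = 0.0684), and Fen1, the flap nuclease, one of -0.33 ± 0.23.

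Both subunits of ribonucleotide reductase fell. Rrm2, its cell cycle regulated subunit, was at 4.76, 4.56, 4.70 and 4.10 in undifferentiated cells and at 3.45, 2.83, 3.70 and 1.1 in the condition, with array 4 far below the other 3. The fall was 1.76 on the log2 scale (-1.76 ± 0.45, adjusted p = 0.0168). Rrm1 fell by 0.77 (SE 0.20), whereas Tk1 (-1.11 ± 0.37) and Tyms (-0.43 ± 0.25), thymidine kinase and thymidylate synthase, did not pass. Of the S phase entry genes E2f1 fell (-0.73 ± 0.22) and Ccne1, E2f2 and Ccne2 did not pass, although the second probe of Ccne1 did (-1.27, adjusted p = 0.0446 in a fit over all probes). Chaf1a, which assembles nucleosomes behind the fork, fell by 1.23 (SE 0.26), and Uhrf1, which helps copy DNA methylation, had a difference of -1.39 ± 0.46 that did not pass (adjusted p = 0.0577), whereas its second probe did (-1.54, adjusted p = 0.0103 over all probes).

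Of the 18 calls, 12 held when any single array was left out. Mcm5 and Gins2 did not pass without hepatocyte condition array 2 or 4 or undifferentiated array 4 (adjusted p 0.057 to 0.061 for Mcm5 and 0.0576 to 0.0614 for Gins2), and Rrm1 did not pass without hepatocyte condition array 3 or 4 (0.0555 and 0.0507). Mcm2 was lost without undifferentiated arrays 1, 2 or 4 or condition arrays 2, 3 or 4 (0.0564 to 0.11), Cdc45 without undifferentiated arrays 2 or 4 or condition arrays 2, 3 or 4 (0.0622 to 0.0873), and E2f1 without undifferentiated arrays 1 or 4 or condition arrays 1, 2 or 3 (0.0554 to 0.107). Uhrf1, Ccne1 and E2f2 passed without condition array 1 (0.0274, 0.0449 and 0.0483), Tk1 and Pcna without condition array 1 or an undifferentiated array (0.0399 to 0.0477), and Mcm4 and Pola1 without undifferentiated array 1 and 3 (0.0402 and 0.0471). With the slide as a block 11 genes fell, and the calls of Mcm10 (adjusted p = 0.0601), Cdc45, E2f1, Gins2, Mcm2, Mcm5 and Rrm1 were lost. Within the 3 slides that hold both groups, 34, 36 and 26 of 36 genes were lower, with medians of -0.75, -1.13 and -0.30.

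Of 50 other replication genes 15 fell and 1 rose. Dbf4, the activator of the Cdc7 kinase, fell by 1.91 (SE 0.24), Hells, a chromatin remodeller, by 1.86 (SE 0.31), and Top2a, which untangles copied DNA, by 1.74 (SE 0.44). Mcm9, a helicase of repair rather than of origins, rose by 1.04 ± 0.22. Of 19 other S-phase control genes 6 fell and 1 rose: Mybl2 fell by 1.92 (SE 0.34) and Skp2, which marks the inhibitor p27 for destruction, by 1.45 (SE 0.24). The gene that rose was Rbl2 (1.02 ± 0.28), a pocket protein that restrains E2F targets; it did not pass without condition array 3 or 4 or undifferentiated array 2 or 3 (adjusted p 0.0594 to 0.072). Of these control genes 2 to 8 passed when an array was left out, where 7 had. Of 18 mitosis genes 17 fell, with a median of -1.99, led by Bub1 of the spindle checkpoint (-2.92 ± 0.36). The mitosis count was 12 to 16 when an array was left out.

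**Figure D2:**
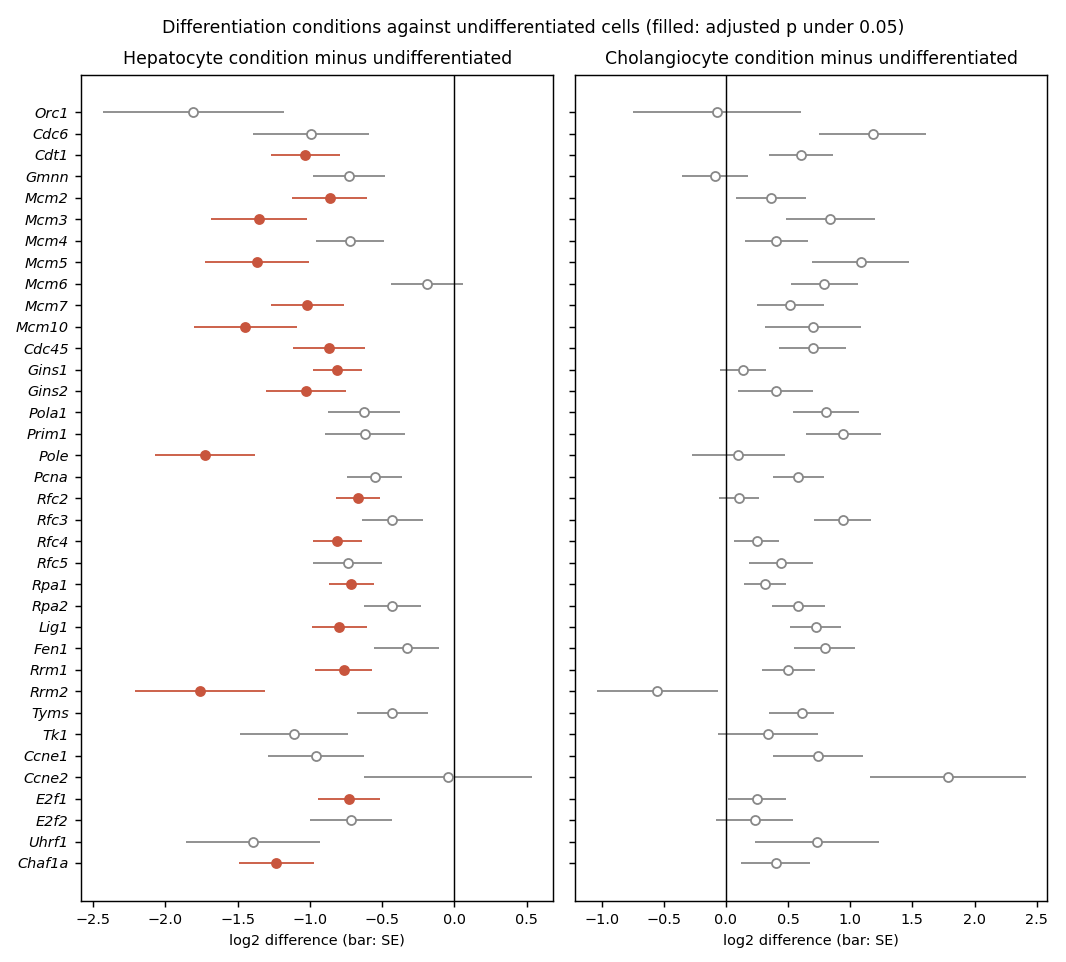
Points are log2 differences from undifferentiated cells for each of the 36 genes, with bars of 1 SE, in the hepatocyte condition (left) and the cholangiocyte condition (right); filled points have an adjusted p under 0.05. On the left all 36 points lie below 0 and 18 are filled, and on the right 33 lie above 0 and none is filled.

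Culture towards cholangiocytes gave no such fall. Of the 36 genes 33 had a higher mean than in undifferentiated cells, yet 0 passed by limma, where 1.38% of all genes did (204 up and 155 down; 113 and 190 with median scaling, 132 and 173 after quantile normalization). At an unadjusted p under 0.05 there were 16, against 12.8% of all genes, and in the table the authors deposited, 0 of 36 passed a false discovery rate of 5%. The median difference was 0.55, beside 0.14 for all genes.

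The groups did not overlap for 9 genes, all higher, against 8.75% of all genes. Rfc3, of the clamp loader, was at -0.58, -0.76 and -0.76 in the condition and at -1.79, -1.75, -1.85 and -1.16 in undifferentiated cells, a difference of 0.94 ± 0.23 (adjusted p = 0.0622). Mcm6 was at 5.15, 5.02 and 5.34, above the undifferentiated range of 4.18 to 4.67 (0.79 ± 0.27, adjusted p = 0.204). Cdc6, which loads the helicase, had a difference of 1.18 ± 0.43 without overlap (adjusted p = 0.253). The 3 genes with a lower mean were Rrm2 (-0.55 ± 0.49), Gmnn (-0.09 ± 0.27) and Orc1 (-0.07 ± 0.68).

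Leaving out undifferentiated array 4, which lies high for these genes, gave 2 calls: Lig1 (0.88, adjusted p = 0.0391) and Rfc3 (1.1, adjusted p = 0.0255). Within the 2 slides that hold both groups, 34 of 36 genes were higher on each, with medians of 0.83 and 0.95. Of the other lists, 0 of 50 replication genes, 0 of 19 S-phase control genes and 0 of 18 mitosis genes passed, with medians of 0.33, 0.12 and 0.23.

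The 2 culture conditions were also set directly against each other. All 36 genes had a lower mean in the hepatocyte condition, 31 fell and the median was -1.40, beside -0.13 for all genes; 15.4% of all genes passed and 8.41% fell. The groups did not overlap for 35 genes, all but Gmnn, against 16.9% of all genes lower without overlap. The 2 comparisons with undifferentiated cells share those control arrays. The differences here use none of them, but their SEs and p-values draw on the spread within all 17 arrays.

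Every one of the 12 synthesis and fork genes and the 4 helicase activation genes fell, as did 8 of 10 licensing genes, 3 of 4 nucleotide genes, 2 of 4 entry genes and both chromatin genes. Lig1 was at 1.29, 0.99, 1.11 and 0.99 in the hepatocyte condition and at 2.90, 2.38 and 2.57 in the cholangiocyte condition (-1.52 ± 0.21, adjusted p = 0.000308). Cdt1 was at 3.35, 2.43 and 2.64 in the cholangiocyte condition, above every array of the hepatocyte condition (-1.64 ± 0.26, adjusted p = 0.000887). Mcm5 (-2.45 ± 0.39), Mcm3 (-2.19 ± 0.36), Cdc6 (-2.17 ± 0.43) and Mcm10 (-2.15 ± 0.39) had the largest falls; the second probe of Cdc6 did not pass (-1.96, adjusted p = 0.0656 over all probes). Those that did not pass were Orc1, Gmnn, Rrm2, Ccne2 and E2f2.

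When an array was left out 25 of the 31 calls held. Mcm6 did not pass without cholangiocyte condition arrays 1 or 3 or hepatocyte condition arrays 2, 3 or 4 (adjusted p 0.0504 to 0.083), nor Tk1 without any cholangiocyte condition array or hepatocyte condition array 2 or 4 (0.0571 to 0.0931). Tyms was lost without cholangiocyte condition array 1 or 2 (0.0642 and 0.0623), Mcm2 and Uhrf1 without array 1 (0.0533 and 0.0502), and E2f1 without array 3 (0.0585). Without hepatocyte condition array 1, Ccne2 and E2f2 passed (0.0372 and 0.0238), and E2f2 did so without array 2 (0.0485); Gmnn passed without cholangiocyte condition array 2 (0.0454). Within the 3 slides holding both conditions, 36, 35 and 36 genes were lower. Of the other lists, 25 of 50 replication genes, 10 of 19 S-phase control genes and 17 of 18 mitosis genes fell, and Rbl2 rose again (1.36 ± 0.30). Leaving out an array gave 15 to 24 for the replication genes, where 25 passed, and 6 to 10 for the S-phase control genes, where 11 passed.

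**Figure D3:**
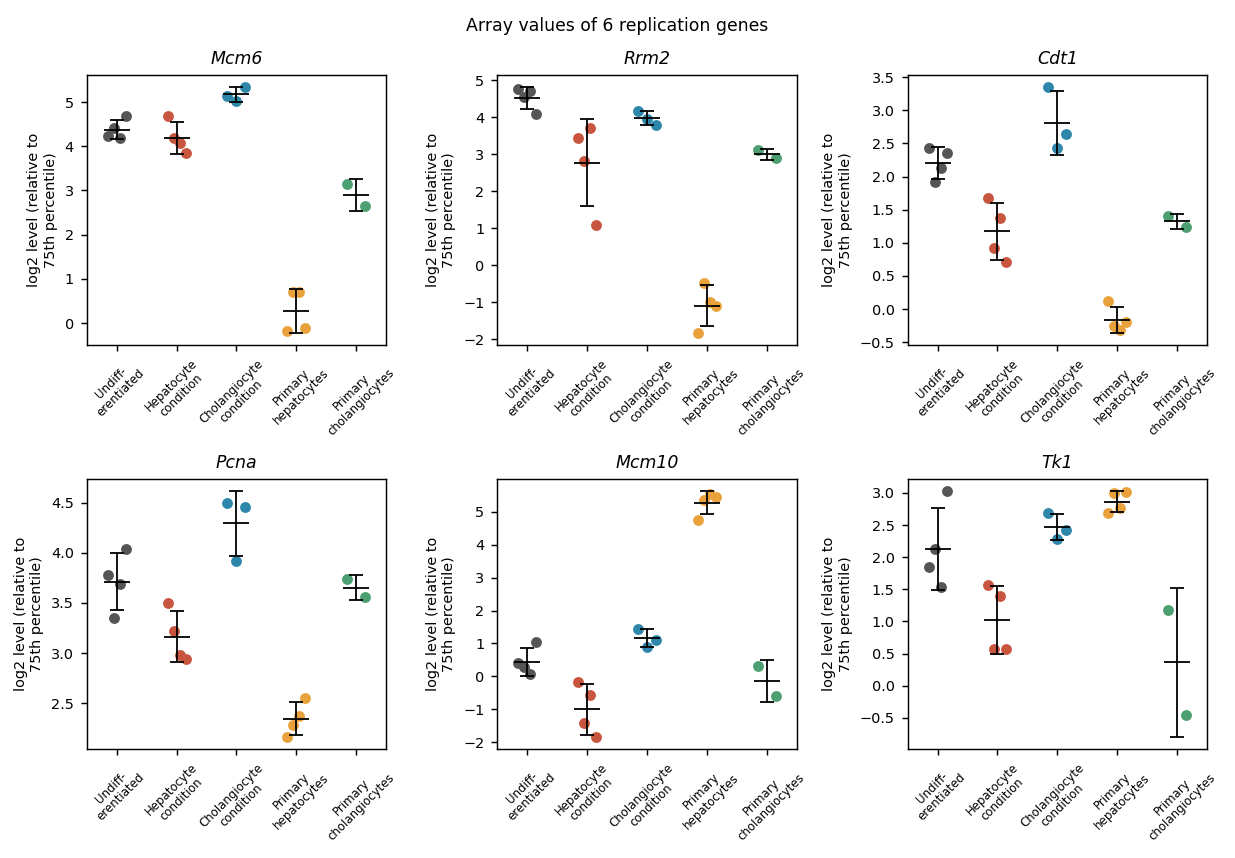
Each panel shows the log2 level of a gene on every array by group (dots), with the group mean and SD (lines); the vertical axes differ between panels and do not start at 0. Mcm6, Rrm2, Cdt1 and Pcna are lowest on the 4 primary hepatocyte arrays, while Mcm10 is highest there at 4.76 to 5.54.

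Primary hepatocytes stood furthest from undifferentiated cells. Of the 36 genes 26 fell and 1 rose, with a median of -1.72 beside 0.44 for all genes; 64.2% of all genes passed, 37.6% up and 26.6% down (9772 and 6903 genes; 7441 and 8391 after quantile normalization). All 27 calls held when any array was left out, and Tk1 passed as well without undifferentiated array 4 (1.03, adjusted p = 0.0242). All 10 licensing genes fell. Mcm6 was at -0.18, 0.71, 0.70 and -0.12 against 4.18 to 4.67, a difference of -4.10 ± 0.25 (adjusted p = 4.94e-09). Mcm2 (-3.95 ± 0.26), Mcm3 (-3.65 ± 0.33), Mcm5 (-3.63 ± 0.36) and Mcm4 (-3.47 ± 0.24) fell almost as far, and Mcm7 less (-2.27 ± 0.25).

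Cdc6 was not well above background on any primary hepatocyte array and was at least 11.0-fold lower there than in undifferentiated cells (adjusted p = 5.17e-08). This bound, as any written so, puts each dim array at its lowest probe well above background or at the gene's own value if higher. Orc1 was above background on 1 of 4 primary hepatocyte arrays, and its fall (-2.40 ± 0.63) turned to 0.22 with another background correction (normexp). Uhrf1 was at 0.89, 0.52, 0.92 and 1.65 in undifferentiated cells and at -6.47, -5.71, -5.18 and -7.47 in primary hepatocytes, where only 2 of the 4 arrays were well above background. Both of its probes fell, but by unequal amounts: the fitted difference was -7.20 ± 0.46 for the brighter and -2.33 for the dimmer, so its size is uncertain. Rrm2 went to -1.82, -0.49, -0.99 and -1.09, a difference of -5.63 ± 0.45. Gins2 (-3.64 ± 0.28), Chaf1a (-3.30 ± 0.26) and Pole (-3.05 ± 0.35) fell too; the dim second probe of Pole did not pass (-0.70, adjusted p = 0.552 over all probes).

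Mcm10 went the other way. It was at 4.76, 5.35, 5.54 and 5.45 in primary hepatocytes and at 0.41, 0.28, 0.06 and 1.05 in undifferentiated cells, a rise of 4.83 ± 0.36 or 28.4-fold (adjusted p = 4.01e-08). No other group reached above 1.45. Thus the 2 genes used to mark the set, Mcm6 and Mcm10, moved in opposite directions, and Mcm10 alone of the 36 rose by limma. In the authors' deposited table the fold change of Mcm10 is 21.1. There 3 of the 36 genes rose and 28 fell at a false discovery rate of 5%. The share of all genes that passed there was not computed, so these counts have no background beside them. Mcm10 was read by 1 probe. Optn, a neighbour of Mcm10 chosen after its values were seen, rose by 1.12 ± 0.30 in the same comparison.

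Genes with smaller steps included the rest of the clamp loader and Rpa2. Rfc2 was at 0.93, 0.82, 0.90 and 0.98 against 0.78, 0.88, 0.89 and 1.18 (-0.03 ± 0.15), and Rpa2 had a difference of -0.01 ± 0.20. Rfc3 (-0.29 ± 0.21), Rfc5 (-0.31 ± 0.24), Cdc45 (0.10 ± 0.25), Tyms (-0.27 ± 0.25), Ccne2 (-0.33 ± 0.58) and E2f2 (0.37 ± 0.28) did not pass either. Tk1 was at 2.68, 2.99, 2.77 and 3.01 in primary hepatocytes, within the undifferentiated range of 1.54 to 3.02 (0.73 ± 0.37). In the annotation 12 of the 36 genes overlap another protein-coding gene. Tk1 is among them and overlaps Afmid, an enzyme gene of tryptophan breakdown. Afmid was at 2.80 to 3.32 in primary hepatocytes and at -2.28 to -1.55 in undifferentiated cells (5.04 ± 0.27, adjusted p = 1.38e-09). Syngr2, the other neighbour of Tk1, had a difference of -0.04 ± 0.19 and did not pass. The part of Afmid in the Tk1 signal was not tested.

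Mitosis genes were lower still: 18 of 18 fell, with a median of -5.68, and 8 to 13 of the 18 were well above background on a primary hepatocyte array. Kif23, a kinesin of cell division, fell by 7.87 (SE 0.50). Of the other replication genes 34 of 50 fell and 7 rose. Top2a fell by 7.35 (SE 0.44), and Ticrr, which helps fire origins, had a difference of -6.34 ± 0.34. Pole4, a small subunit of polymerase epsilon, rose by 1.65 ± 0.23 and Wdhd1, which ties polymerase alpha to the helicase, by 1.20 ± 0.26. Of the S-phase control genes 15 of 19 fell, led by E2f7 (-5.94 ± 0.41), and Rbl2 rose (1.26 ± 0.28).

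Markers of other liver cells moved with this group. All 7 endothelial markers tested were above background on the primary hepatocyte arrays, where their mean was -1.79 to -1.21 against -6.80 to -4.0 on the other arrays. The mean of 10 leukocyte and Kupffer cell markers was -2.56 to -2.02 there, against -5.04 to -3.54 elsewhere, and 7 of them rose and 2 fell against undifferentiated cells. That of 6 red blood cell markers was -2.28 to -1.86 against -6.92 to -5.44; 4 rose, 1 fell (Tfrc, -0.996 ± 0.19) and Epb42 was above background on no array of either group. Alas2 was well above background in primary hepatocytes and on no undifferentiated array. Of 7 stellate cell and fibroblast markers 5 rose, among them Dcn (6.55 ± 0.88) and Lrat (4.94 ± 0.66). Pdgfrb, also among the 5, was above background on no array of either group. The mean of the 7 was -5.81 to -4.05 against -7.98 to -4.74. The part of these other cell types in the differences was not tested. On the 3 slides with both groups, 30, 34 and 29 of the 36 genes were lower in primary hepatocytes. Against undifferentiated cells, Dcn (5.06 ± 0.88) and Clec4g (1.58 ± 0.50) also rose in the hepatocyte condition. In the cholangiocyte condition Clec4g rose by 3.20 ± 0.54. No other endothelial, stellate, fibroblast or red blood cell marker passed in either condition. Ptprc of leukocytes was at -4.02 to -2.99 in the hepatocyte condition and at -6.58 to -5.66 in undifferentiated cells. Their leukocyte list means overlapped (-4.61 to -3.80 and -5.04 to -3.96). The part of such cells was not tested.

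The next comparisons set cells made in culture against primary cells of the same name. Against primary hepatocytes, the hepatocyte condition was higher for 20 of the 36 genes and lower for 5, with a median of 0.88 beside -0.33 for all genes; 59.7% of all genes passed, 26% up and 33.7% down (6745 and 8753 genes; 7978 and 7378 after quantile normalization, 5470 and 14261 after normexp). All 25 calls held when any array was left out. Among the fits that left out 1 array, Orc1 passed in that without primary hepatocyte array 4, which leaves no array of that group with Orc1 above background, so no value is given. Among licensing genes Mcm6 was higher by 3.91 ± 0.25, Mcm2 by 3.09 ± 0.26 and Mcm4 by 2.75 ± 0.24. Cdc6 was at least 5.52-fold higher (adjusted p = 5.6e-07). Rrm2 (3.87 ± 0.45), Gins2 (2.62 ± 0.28) and Chaf1a (2.06 ± 0.26) were also higher. For Uhrf1 the brighter probe gave 5.81 ± 0.46, with 2 of 4 primary arrays above background, and the dimmer one gave 0.79 and did not pass (adjusted p = 0.0761 over all probes).

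The 5 genes that were lower in the hepatocyte condition were Mcm10 (-6.27 ± 0.36), Tk1 (-1.84 ± 0.37), E2f2 (-1.09 ± 0.28), Cdc45 (-0.97 ± 0.25) and Rfc2 (-0.64 ± 0.15). Tk1 was at 1.56, 0.57, 1.40 and 0.57 in the condition, below all 4 primary arrays. Within the 3 slides with both groups 23, 21 and 27 genes were higher. Of the other replication genes 26 of 50 were higher, among them Top2a (5.61 ± 0.44), and 9 were lower, among them Dna2, a nuclease of the fork (-2.41 ± 0.40), and the helicase gene Recql4 (-1.58 ± 0.29). Of 18 mitosis genes 16 were higher and none lower.

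Against primary cholangiocytes, the cholangiocyte condition was higher for 16 of the 36 genes and lower for none, with a median of 1.02 beside 0.17 for all genes; 19.6% of all genes passed and 11.9% rose (3103 up and 1984 down; 5407 and 1811 after normexp). The groups did not overlap for 28 genes, all higher, against 25.9% of all genes. Mcm6 was at 3.15 and 2.64 in primary cholangiocytes, below the 3 condition arrays at 5.02 to 5.34 (2.28 ± 0.32, adjusted p = 0.00025). Gins1 (1.97 ± 0.22), Mcm3 (1.93 ± 0.43), Prim1, the primase (1.73 ± 0.36), Mcm7 (1.59 ± 0.32) and Fen1 (1.53 ± 0.29) rose as well. Tk1 rose by 2.11 ± 0.48, with the primary arrays apart at 1.18 and -0.46.

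There were 2 primary arrays, and 9 of the 16 calls held whichever array was left out. Without primary array 4, Tk1 (adjusted p = 0.105), Mcm4 (0.113), Prim1 (0.0548), Lig1 (0.0849) and Mcm2 (0.105) did not pass, and without primary array 3 neither did Rfc3 (0.0535), Mcm2 (0.126) and Ccne2 (0.32). Without cholangiocyte condition array 1, Lig1 (0.0506), Mcm2 (0.117) and Ccne2 (0.0865) were lost, and Ccne2 was lost without condition array 2 or 3 too (0.0539 and 0.0524). Chaf1a and Pcna passed without condition array 2 (0.04 and 0.0436). In a fit of these 2 groups alone 2 genes passed. The 1 slide with both groups had 30 of 36 genes higher. Of the other lists 19 of 50 replication genes, 6 of 19 S-phase control genes and 3 of 18 mitosis genes were higher; Hells (1.96 ± 0.39) and Skp2 (1.69 ± 0.31) were among them. Leaving out an array gave 9 to 14 passing replication genes, 4 to 7 S-phase control genes, where 8 passed, and 1 to 6 mitosis genes.

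**Figure D4:**
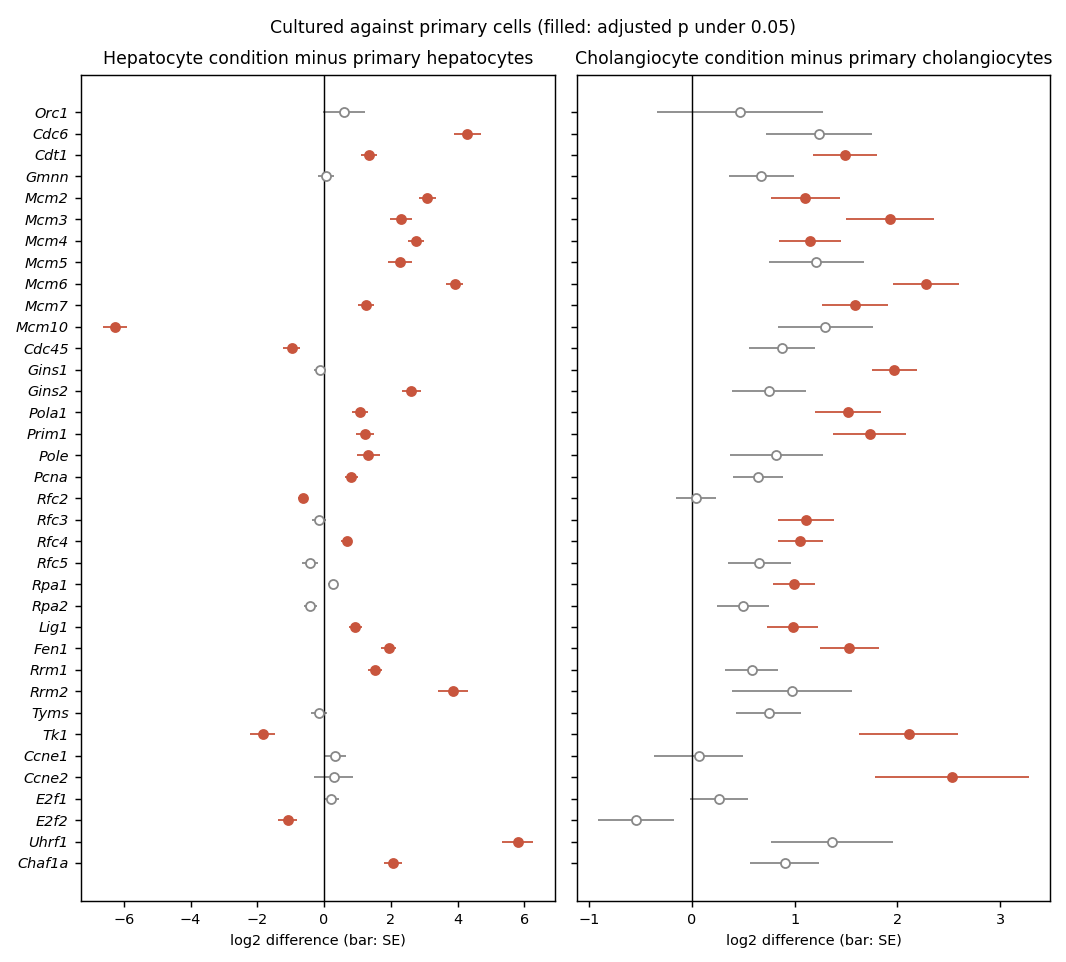
Points are log2 differences between cultured and primary cells for each of the 36 genes, with bars of 1 SE, for hepatocytes (left) and cholangiocytes (right); filled points have an adjusted p under 0.05. On the left the points run from -6.27 (Mcm10) to 5.81 (Uhrf1, above background on 2 of 4 primary arrays), Cdc6 is drawn at its fitted value although no primary hepatocyte array was above background, and on the right 35 of 36 lie above 0.

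The 2 primary cell types were then compared with each other; the primary hepatocyte arrays are those of the comparisons above. Of the 36 genes 22 were lower and 3 higher in primary hepatocytes than in primary cholangiocytes, with a median of -1.26 beside 0.35 for all genes; 49.6% of all genes passed, 28% up and 21.6% down (7272 and 5618 genes; 6213 and 7142 after quantile normalization, 14380 and 4793 after normexp). Uhrf1 was lower by a difference of -6.57 ± 0.57 with its brighter and -1.97 with its dimmer probe, Rrm2 by one of -4.10 ± 0.55 and Mcm5 by one of -3.50 ± 0.44. Cdc6 was at least 10.6-fold lower by its brighter probe. Its second probe gave a difference of -3.35 (adjusted p = 0.00237 over all probes), slightly less than that bound. The 3 higher genes were Mcm10 (5.42 ± 0.44), Tk1 (2.50 ± 0.46) and Gins1 (1.14 ± 0.21). Gins1 was at -0.19, -0.17, -0.21 and -0.19 in primary hepatocytes and at -1.0 and -1.66 in primary cholangiocytes.

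Here 20 of the 25 calls held whichever array was left out. Without primary cholangiocyte array 3, Mcm7 (adjusted p = 0.0848), Pola1 (0.0948) and Prim1 (0.25) did not pass, and without array 4 neither did E2f1 (0.0876) and Rfc4 (0.0848). Orc1, which did not pass with all arrays, did so without primary hepatocyte array 4, the 1 array of that group on which it was above background, and its size is therefore not given. On the 2 slides with both groups 26 and 29 genes were lower. Of the other replication genes 24 of 50 were lower and 9 higher, among them Dna2 (2.53 ± 0.50), and 17 of 18 mitosis genes were lower.

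The last pair set primary cholangiocytes against undifferentiated cells. Of the 36 genes 7 fell and none rose, with a median of -0.61 beside 0.01 for all genes; 19.1% of all genes passed and 10.6% fell (2210 up and 2745 down; 1497 and 3071 with median scaling). Gins1 (-1.83 ± 0.21, adjusted p = 4.06e-05) and Mcm6 (-1.48 ± 0.30, adjusted p = 0.00358) fell and held whichever array was left out. The other 5 calls were each lost without at least 1 array. Tk1 (-1.77 ± 0.46) did not pass without primary array 4 (0.223), Rfc4 (-0.81 ± 0.21) without primary array 3 (0.0969), and Mcm7 (-1.07 ± 0.31) without primary array 4 or undifferentiated array 1 (0.234 and 0.0515). Rpa1 (-0.67 ± 0.19) was lost without primary array 3 or undifferentiated array 3 or 4 (0.0554 to 0.189) and Cdt1 (-0.88 ± 0.29) without either primary array or undifferentiated arrays 1, 3 or 4 (0.0696 to 0.188). Without undifferentiated array 4, Ccne1 passed upwards (1.03, 0.0478). Some endothelial markers moved with this group: 3 of 7 rose, Clec4g by 3.44 ± 0.61, and Cdh5 was at -8.56 and -4.61 on primary arrays 3 and 4, above background only on array 4; the mean of the 7 was -5.31 to -4.0, against -6.80 to -6.22 in undifferentiated cells. Of the leukocyte list 1 of 10 rose (Cd68, 3.37 ± 0.41), and of the stellate and fibroblast list 1 of 7. Their part in the result was not tested. With the slide as a block 2 genes passed, and on the 1 slide with both groups 28 of 36 genes were lower. Of the other replication genes 12 of 50 fell and 2 rose, and 2 of 18 mitosis genes fell. Leaving out an array gave 7 to 12 passing replication genes, where 14 passed, and 0 to 2 mitosis genes.

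**Figure D5:**
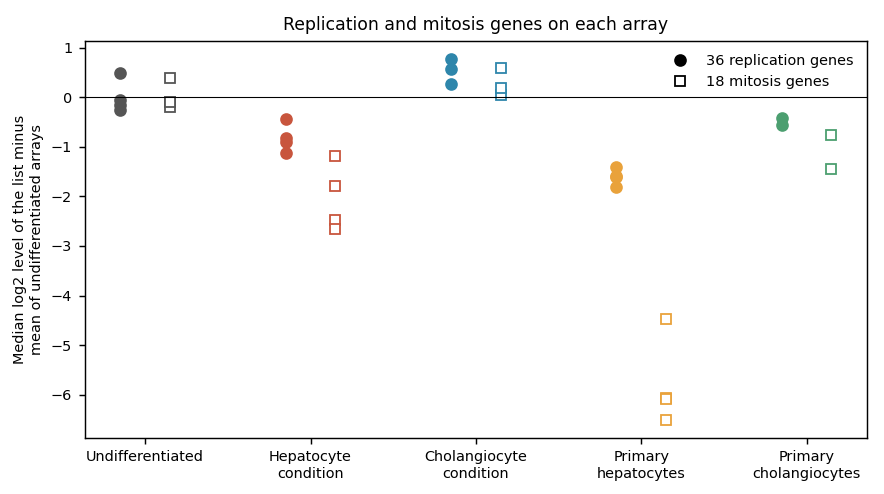
Each mark is 1 array: filled circles give the median of the 36 replication genes and open squares the median of 18 mitosis genes, as log2 level minus the mean of the undifferentiated arrays. Primary hepatocytes lie at -1.80 to -1.42 for replication and at -6.50 to -4.48 for mitosis, and the hepatocyte condition at -1.13 to -0.44 and -2.66 to -1.19.

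Replication and mitosis lists were both lowest in primary hepatocytes and, among cultured cells, in the hepatocyte condition. On hepatocyte condition arrays 1 to 4 the mitosis median was -1.19, -2.47, -1.78 and -2.66, and arrays 1 and 3 are those on which albumin was at 7.62 and 7.58. Mki67, a protein of dividing cells, was at 1.84, 0.52, 1.11 and 0.44 there, at 2.54 to 3.46 in undifferentiated cells and at -5.37 to -2.22 in primary hepatocytes. On the primary cholangiocyte arrays it was at 2.77 and 0.58.

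Whether cultured cells differ from primary cells to the same extent in both lineages was tested as a difference of differences, hepatocyte condition minus primary hepatocytes less the same for cholangiocytes. It passed for 18 of 36 genes, where 37.7% of all genes passed (4034 up and 5771 down; 5453 and 4952 after quantile normalization, 3387 and 13621 after normexp), 9 in each direction. Median scaling gave 11 genes, and 12 of the 18 calls held whichever array was left out; those of Chaf1a, Rfc2, Rfc5, Rpa1, Rpa2 and Rrm1 did not. The median was -0.10 beside -0.44 for all genes. It was largest below 0 for Mcm10 (-7.57 ± 0.58, adjusted p = 2.85e-07) and Tk1 (-3.95 ± 0.61), which were lower in culture among hepatocytes and, for Tk1, higher in culture among cholangiocytes. It was above 0 for Rrm2 (2.89 ± 0.74), where the gap to the primary cells was wider for hepatocytes, and for Mcm2 (1.99 ± 0.43) and Gins2 (1.87 ± 0.45). For Uhrf1 the brighter probe gave 4.45 ± 0.76 and the dimmer one -0.30, which did not pass. For Cdc6, above background on no primary hepatocyte array, the size is not measured: its second probe did not pass (1.39, adjusted p = 0.304 over all probes), and the sign turned (-0.78) with the normexp background correction.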

How the data were processed

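Single-colour Agilent arrays of 17 RNA samples were analysed from deposited scanner files. Intensity columns are the program's spot signals, background subtracted, read with Feature Extraction 10.5.1.1 per the file headers (9.53 per the submitters' processing notes). RNA was amplified with WT-Ovation Pico and labelled with Cy3, per the labels' protocols, and the genome build was not given in the sources used here. The authors' deposited table holds scores: fold changes with a sign, and false discovery rates as a percent; how they were computed was not given there.

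From the deposited intensities, log2 values minus the array's 75th percentile were computed here; no spot was saturated. Spots of a probe were averaged without outlier flags, and 135 probes without an unflagged spot on some array were left out. A probe was kept if well above background on at least 2 arrays (32302 probes), and a gene was read from its brightest probe. Groups were compared with limma 3.58.1 in R 4.3.3 (lmFit, eBayes, two-sided, all 17 arrays, Benjamini-Hochberg over all genes), tested on simulated data first. The number of arrays limits the precision. All 36 genes could be named, and of other lists up to 4 per direction with the largest difference among those that passed. The neighbours Afmid, Optn and Syngr2 were added after their values were seen. One gene of these lists is not reported here by name. Members and lists were chosen with earlier results of these data known. Same-numbered cholangiocyte condition and undifferentiated arrays had correlated deviations from their group means (0.385, 0.281 and 0.318). Arrays of different numbers were not correlated with each other, so these values do not show a pairing. Between the hepatocyte condition and undifferentiated cells the correlation was 0.519 for arrays 4. It was -0.031, -0.071 and -0.148 for arrays 1, 2 and 3. Alternatives were background correction, scaling, filters, probe averaging, slide or replicate blocks, fits of the compared groups, leaving out arrays and the authors' table.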

Additional observations from a re-analysis of the deposited data

Results flagged for a closer look

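In undifferentiated cells array 4 stood apart from the other 3 for 4 genes, all of them higher there: Mcm4 at 3.48 (nearest array 2.44), Rfc3 at -1.16 (nearest -1.75), Rfc5 at 1.94 (nearest 1.09) and Ccne1 at 1.51 (nearest 0.23). The gap to the nearest array exceeded Dixon's critical value. These were 4 of 108 groups of 4 arrays, and chance alone marks about 1 in 20.

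The difference between cultured and primary cells was itself different between the hepatocyte and cholangiocyte lineages for 18 of 36 genes (limma, adjusted p under 0.05). Of all genes 37.7% passed, 15.5% up and 22.2% down, and their median was -0.44. The difference of differences was above 0 for Rrm2 (2.89), Mcm2 (1.99), Gins2 (1.87), Mcm6 (1.63), Mcm4 (1.60), Chaf1a (1.16) and Rrm1 (0.95). Uhrf1 (4.45) and Cdc6 (3.06) also passed, but neither size is firm: Cdc6 was above background on no primary hepatocyte array and Uhrf1 on 2 of 4, and their second probes gave 1.39 (adjusted p = 0.304) and -0.30 (adjusted p = 0.718) and did not pass. It was below 0 for Mcm10 (-7.57), Tk1 (-3.95), Gins1 (-2.09), Cdc45 (-1.84), Rfc3 (-1.25), Rfc5 (-1.09), Rpa2 (-0.92), Rpa1 (-0.73) and Rfc2 (-0.68). Chaf1a, Rfc2, Rfc5, Rpa1, Rpa2 and Rrm1 did not pass when any 1 of 7 to 11 arrays was left out (adjusted p 0.0506 to 0.218), and Ccne2 and Tyms passed without 1 array (0.0185 to 0.0427).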

How the results depend on the processing

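With the slide as a block, 11 genes passed between the hepatocyte condition and undifferentiated cells in place of 18, and 2 between primary cholangiocytes and undifferentiated cells in place of 7. With the compared groups alone these counts were 9 and 3, and 2 genes passed between the cholangiocyte condition and primary cholangiocytes in place of 16. In the authors' deposited table the last count was 7, and 4 passed for primary cholangiocytes against undifferentiated cells. The share of all genes that passed in that table was not computed. A filter on every array of a group gave 1 gene for the cholangiocyte condition against undifferentiated cells in place of 0, and median scaling gave 11 for the difference of differences in place of 18. The cause was not tested. With the replicate block the counts were 17, 0, 25, 14, 29, 25, 27, 8 and 14, in the order hepatocyte and then cholangiocyte condition against undifferentiated cells, each condition against its primary cells, the 2 conditions, the 2 primary types, primary hepatocytes and then primary cholangiocytes against undifferentiated cells, and the difference of differences. Leaving out 1 array gave, in that order, 13 to 22, 0 to 2, 25 to 26, 11 to 17, 26 to 33, 22 to 26, 27 to 28, 4 to 7 and 12 to 16.

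With normexp, 9 single values changed sign: Orc1 was -0.78 between the hepatocyte condition and primary hepatocytes, 0.73 between primary types, 0.22 between primary hepatocytes and undifferentiated cells and -1.43 in the difference of differences. Ccne2 was -0.77 between the hepatocyte condition and primary hepatocytes and 0.92 between primary hepatocytes and undifferentiated cells. Cdc6 was -0.78 and Ticrr -0.40 in the difference of differences, and Cdc7 was 1.25 between primary types. Orc1, Ccne2 and Cdc6 were near background in primary hepatocytes. Over all alternatives, a further 117 sign changes of the 36 genes concerned values that passed in neither setting. Of these, 8 came with normexp and 72 from fits that left out 1 array. Scaling moved the median of all genes between primary hepatocytes and undifferentiated cells from 0.44 to 0.00 (median scaling) or -0.01 (quantile).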

Other observations

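In a fit over all probes, the dimmer probe of Uhrf1, above background on 12 of 17 arrays, fell by 1.54 between the hepatocyte condition and undifferentiated cells (adjusted p = 0.0103, limma), where the brighter one did not pass (0.055). Against primary hepatocytes the dimmer probe had a difference of 0.79 (adjusted p = 0.0761) and the brighter one 5.81. In the difference of differences it had -0.30, where the brighter one had 4.45. Second probes also passed where the brighter did not, or the reverse, for Ccne1, Cdc6 and Pole. Both probes of Rfc4 and Rpa1 passed between the hepatocyte condition and undifferentiated cells, the second with -1.42 and -1.04.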
